A study of Mus musculus with 12 samples.

Results

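Gene expression was compared between fed and 24 h fasted PPARα-null mice in the small intestine. Of the 12 arrays in the study, 6 belonged to this comparison: 3 biological replicates from fed and 3 from fasted PPARα-null mice, taken by their sample titles. The other 6 came from wild-type mice, 3 fed and 3 fasted for 24 h, and were used where a difference between the genotypes was tested. All mice were male and 14 weeks old. The PPARα-null mice were pure bred 129S4/SvJae animals that lack Ppara in the whole body from the germline on, and the wild-type mice were 129S1/SvImJ. The labels of the fed arrays give the strain only as 129Sv, and the descriptions of the fasted wild-type samples name the knockout, against their titles and strain, so titles were followed. The wild-type and null lines are different substrains, and substrain and genotype cannot be told apart. The study design names the AIN93M diet while the study's methods name a standard chow. Fasting began at the onset of the light cycle. RNA came from the full length of the small intestine after fat and pancreas had been dissected away, so that fewer cells of a type and less RNA per cell cannot be told apart.

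PPARα is a nuclear receptor that binds fatty acids and, together with RXR, switches on genes for the uptake and oxidation of fat. In liver it is a main regulator of the response to fasting, when fatty acids leave adipose tissue. The intestinal epithelium also expresses it, in cells that take up dietary fat and pack it into chylomicrons. Fasting acts through other routes as well: glucocorticoids rise and act through their own receptor, insulin falls and frees FoxO factors, and the epithelium renews itself more slowly. Which of these responses can be measured when PPARα is lacking is what the null arrays show.

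Ppara itself checked the labels. Its intensity, on the linear GCRMA scale, was 6.84, 7.50 and 7.35 in the fed null arrays and 13.2, 11.7 and 10.96 in the fasted null arrays. In wild-type mice it was 19.9, 34.0 and 35.9 when fed and 58.7, 48.1 and 30.8 when fasted. All 6 null arrays lay below the 6 wild-type arrays, and the fasted null arrays lay above the fed ones at this low level. Transcripts of the other PPAR isotypes were also examined. Pparg, the isotype of fat cells, gave 26.4, 29.7 and 27.8 in the fed and 51.3, 85.1 and 71.9 in the fasted arrays, with no overlap. Ppard lay between 4.41 and 5.32 in the 6 null arrays and between 4.20 and 5.43 in the wild-type arrays. That is below the intensity of 20 over which genes were tested, so its change could not be judged. The tissue label held: Fabp2, the intestinal fatty acid-binding protein, lay between 9139 and 9996 and Vil1, villin of the brush border, between 3974 and 5758 in the null arrays.

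A pair of technical features bear on every value below. First, the fasted null arrays were dimmer: over the 9351 probe sets with a fed null mean above 20, the median fasted-minus-fed difference was -0.338 on the log2 scale, and -0.28 in wild-type mice. This median shift was removed, and all log2 changes and fold changes below are relative to it. The fed and the fasted arrays each share nearly the same distribution of values, a different one for each, so the normalization and the feeding state cannot be told apart. Second, exocrine pancreas RNA differed between arrays. The mean log2 intensity of 23 pancreas genes was 4.98, 5.16 and 5.8 in fed null replicates 1 to 3, and 9.55, 5.12 and 9.73 in fasted null replicates 1 to 3. Fasted replicates 1 and 3 were thus rich in pancreas transcripts, and fasted replicate 2 was as low as the fed arrays. The gene Cela2a, pancreatic elastase, showed it most plainly, at 7.02, 14.8 and 47.4 in the fed and 4819.6, 17.1 and 4923 in the fasted arrays. Of the 11 pancreas genes tested, 5 rose, and 0 rose when fasted replicates 1 and 3 were left out. Fed null replicate 3 stood apart for interferon-inducible genes, as given with them below. RNA integrity, read from the ratio of 3' to 5' control probe sets, overlapped for Actb, at 1.60 to 1.74 in the fed and 1.68 to 1.77 in the fasted null arrays. For Gapdh it was 1.14 to 1.15 in the fed and 1.18 to 1.26 in the fasted arrays, with no overlap; its part in the changes was not tested.

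**Figure D1:**
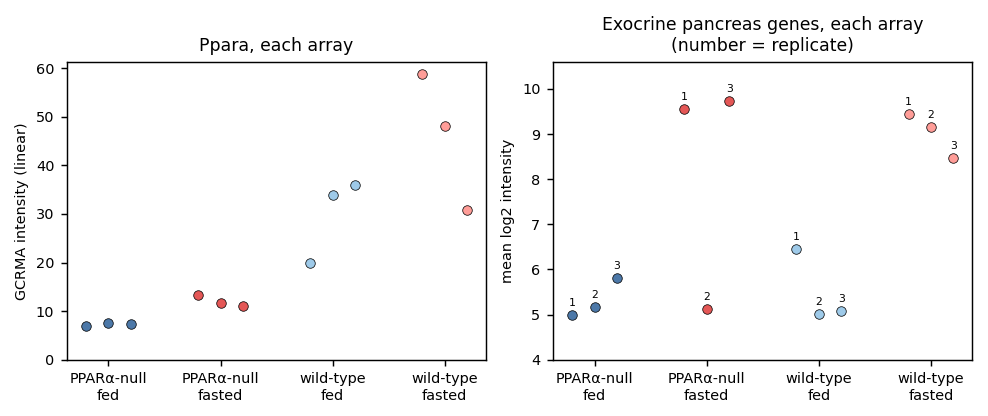
Left, linear GCRMA intensity of Ppara, a point for each array, in the 4 groups of 3 arrays. Right, mean log2 intensity of 23 exocrine pancreas genes in each array, with the replicate number above the point. Ppara lies at 13.2 or below in the 6 null arrays and at 19.9 or above in the wild-type arrays, and fasted null replicate 2, at 5.12, sits among the fed arrays while replicates 1 and 3 are at 9.55 and 9.73.

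A gene was called risen or fallen at an unadjusted limma p under 0.01 and a change over 1.3-fold. Of 5824 genes tested in PPARα-null mice, 1093 rose upon fasting (18.8%) and 1400 fell (24.0%). These background shares are the ones to set beside each gene list. The adjusted p of the called genes reached at most 0.01997 for rises and 0.02084 for falls. Changes over 4-fold were seen in 39 genes that rose and 60 that fell. With the pancreas-poor fasted replicate 2 as the only fasted array, its spread assumed to be that of the other groups, 803 genes rose, of which 761 were among the 1093, and 1091 fell, of which 1032 were among the 1400. On the values as deposited, with the shift left in, the split turned to 443 risen and 2672 fallen. The level filter also bears on the split. Only genes with a fed null mean above 20 were tested, so genes low when fed could not count as rises. Genes low when fasted could still count as falls. When a mean above 20 in either null group sufficed, 1277 rose and 1400 fell.

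**Figure D2:**
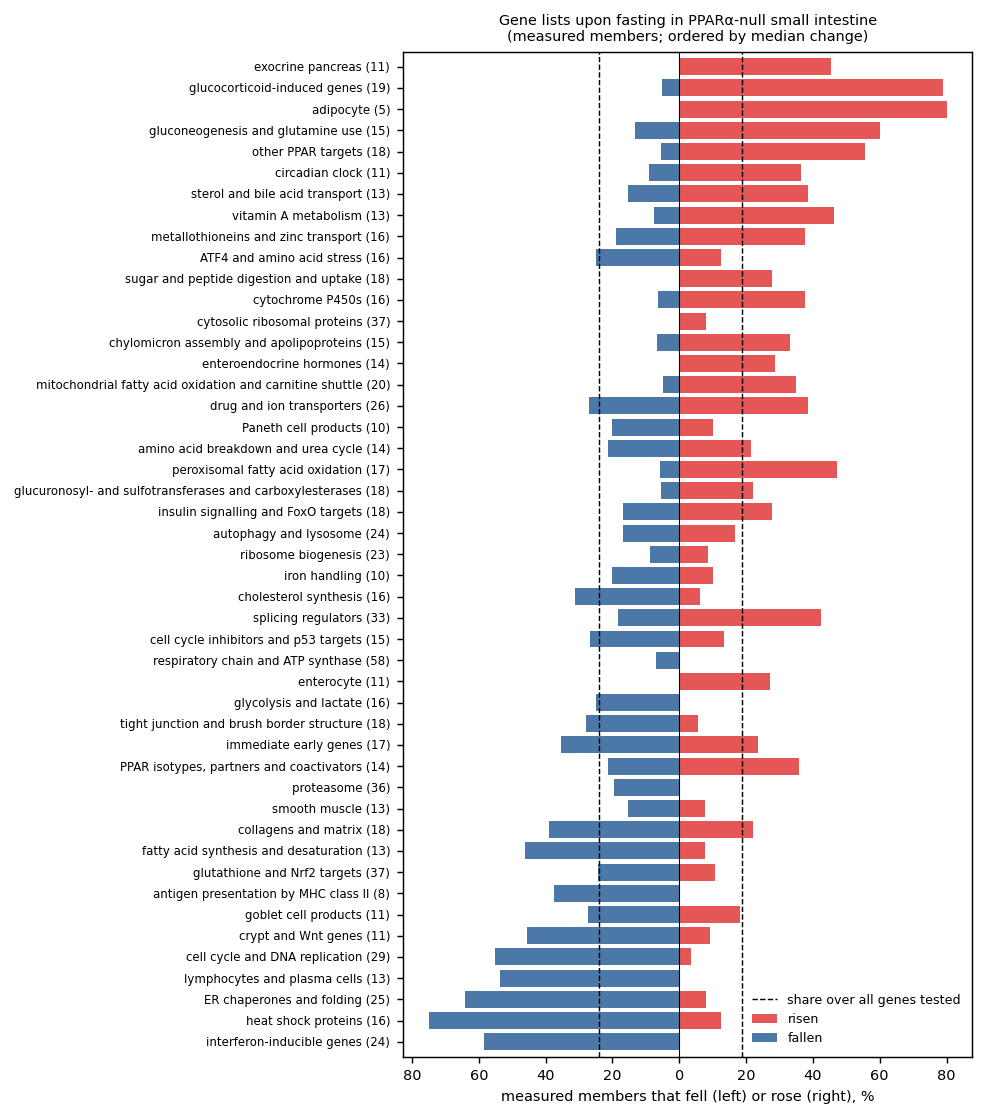
Share of the measured members of each gene list that rose (right, red) or fell (left, blue) upon fasting in PPARα-null mice, in percent, for lists with at least 5 measured members (number in parentheses), ordered by median log2 change. Dashed lines mark the shares over all 5824 genes, 18.8% risen and 24.0% fallen. Glucocorticoid-induced genes, adipocyte genes, genes of gluconeogenesis and glutamine use and PPAR targets stand far to the right. Heat shock proteins, ER chaperones and interferon-inducible genes stand far to the left.

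The largest rises were those of metallothioneins, fuel-switch genes and hormone-responsive genes. Mt2, a zinc-binding metallothionein, gave 89.8, 169 and 83.7 in the fed and 3359.8, 2875 and 4449 in the fasted arrays, a log2 change of 5.35 ± 0.73 (SE of the limma fit, n = 3 arrays per group; adjusted p = 5.3e-05). Pdk4, the kinase that shuts down pyruvate dehydrogenase and spares glucose, gave 52.4, 80.3 and 48.0 in the fed and 1064, 1108 and 707 in the fasted arrays, a 20.3-fold rise (log2 4.34 ± 0.24, adjusted p = 3.8e-08). Cirbp, the cold-inducible RNA-binding protein, gave 32.0, 36.3 and 24.7 in the fed and 491, 464 and 409 in the fasted arrays (log2 4.23 ± 0.23, adjusted p = 4.4e-08). For each of these genes the gap between the groups was wider than the spread within either. That fed and fasted arrays did not overlap was required by the choice of genes. Of all 5824 genes tested, 1755 had every fasted array above every fed array, relative to the shift, and 2021 had every one below. Fkbp5, a chaperone of the glucocorticoid receptor, rose 15.6-fold, Ces1d, a carboxylesterase that hydrolyses lipid esters, 14.5-fold and Nr1d1, the clock repressor REV-ERBα, 11.9-fold. Ttr, the thyroxine and retinol carrier made mainly in liver, rose from 20.4, 22.6 and 18.7 to 190.0, 123 and 152, 9.40-fold. Alb, the defining liver transcript, was too low to be tested, at 6.03, 6.17 and 6.40 in the fed and 7.47, 7.49 and 7.88 in the fasted null arrays. A part of liver RNA in the rise of Ttr was not tested. Pmaip1, a pro-apoptotic BH3 protein, rose 8.10-fold, Pck1, the entry enzyme of gluconeogenesis, 7.83-fold and Ptbp2, a splicing repressor, 7.79-fold. Lamb3, a laminin chain of the basement membrane, rose 6.94-fold, Errfi1, a feedback inhibitor of EGF receptor, 6.12-fold and Cyp27a1, the sterol 27-hydroxylase, 6.09-fold.

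The largest falls took in stress, interferon and lipid genes. Nfe2l2, which encodes NRF2, the activator of antioxidant genes, gave 1618, 1523 and 1518 in the fed and 50.3, 59.995 and 30.2 in the fasted arrays, a log2 change of -4.77 ± 0.20 (adjusted p = 4.3e-09). It went from a well-expressed transcript to a low one in all 3 fasted arrays, and its values rest on a single probe set. Irgm2, an interferon-inducible GTPase, gave 249.6, 172 and 529 in the fed and 8.78, 14.1 and 8.85 in the fasted arrays (log2 -4.44 ± 0.43, adjusted p = 3.8e-06). Scd2, a stearoyl-CoA desaturase, gave 205, 289.9 and 165 in the fed and 10.4, 11.3 and 9.76 in the fasted arrays (log2 -4.02 ± 0.19, adjusted p = 1.2e-08). Tardbp, the RNA-binding protein TDP-43, gave 503, 595 and 527 in the fed and 29.8, 27.6 and 29.7 in the fasted arrays on its main probe set, which for each gene is the one with the highest mean over all 12 arrays (log2 -3.88 ± 0.12). Its other probe sets disagreed in size and in direction, with changes of -1.40, -1.26 and 0.76. Parp14, an ADP-ribosyltransferase of interferon responses, fell 11.7-fold, Fam136a, a mitochondrial protein, 10.9-fold, and Trmt1l, a tRNA methyltransferase homologue, 10.8-fold. Hsph1, the large heat shock protein HSP110, fell 10.1-fold and Ighm, the IgM heavy chain, 9.60-fold. Igtp and Oasl2, both interferon-inducible, fell 9.27-fold and 8.66-fold. The immunoglobulin segment Igkv6-14 fell 8.40-fold and its probes may also read related segments. Tmem140 fell 8.92-fold, Hsd17b6, a retinol and steroid dehydrogenase, 8.40-fold and Nat8f4 8.11-fold.

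**Figure D3:**
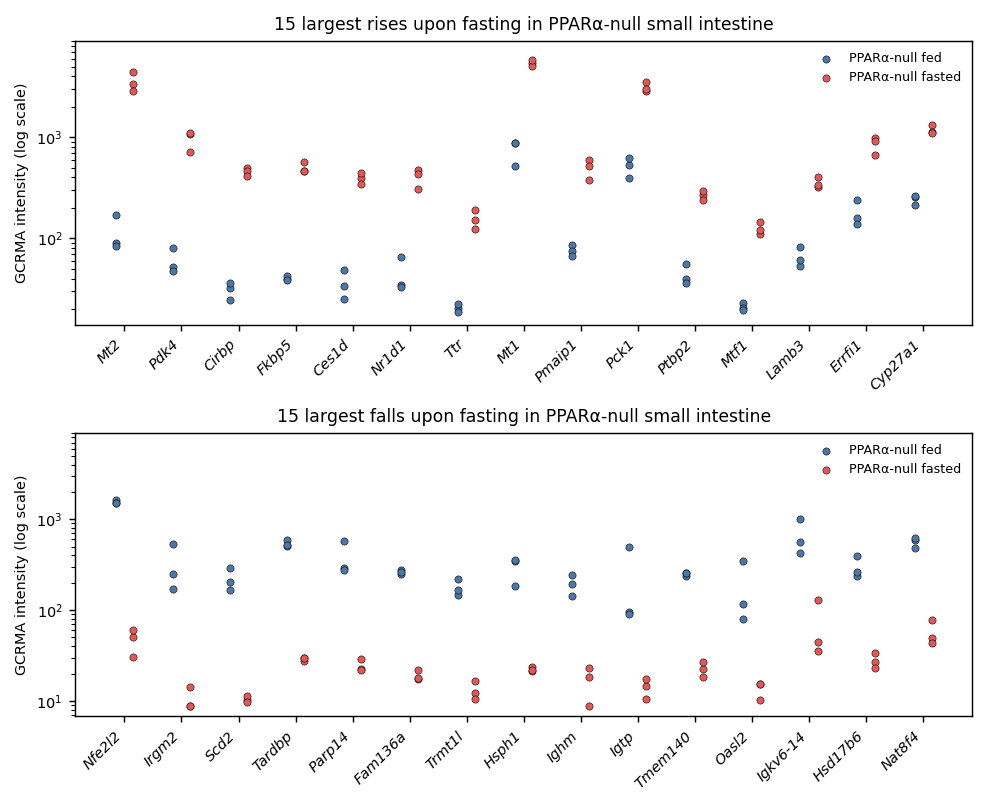
Linear GCRMA intensity on a log axis of the 15 genes with the largest rise (top) and the 15 with the largest fall (bottom) upon fasting in PPARα-null mice, pancreas genes left out; blue points are the 3 fed and red points the 3 fasted arrays. Fed and fasted arrays do not overlap for any of the 30 genes, as the choice of genes required.

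Many genes known as PPAR targets rose although the receptor was lacking. Of 18 measured members of the list of other PPAR targets, 10 rose (55.6%) and 1 fell, with a median log2 change of 0.58 against -0.03 over all genes tested. Angptl4, which inhibits lipoprotein lipase, gave 93.6, 157 and 80.7 in the fed and 585, 368 and 386 in the fasted arrays (log2 2.38 ± 0.25, adjusted p = 6.7e-06). Cpt1a, the carnitine palmitoyltransferase that admits fatty acids to mitochondria, gave 199.6, 213 and 235 in the fed and 522, 481 and 436 in the fasted arrays (log2 1.49 ± 0.10, adjusted p = 1.8e-07). Creb3l3, a fasting-responsive transcription factor of liver and gut, rose by 0.99 ± 0.08 on the log2 scale. Txnip, a brake on glucose uptake, rose by 1.09 ± 0.10. Mgll, monoglyceride lipase, rose by 0.98 ± 0.17. Cidec, a lipid droplet protein, rose by 0.91 ± 0.17. Cd36, a fatty acid transporter, rose by 0.75 ± 0.11. Vnn1, a pantetheinase, was the member that fell, from 1801, 1709 and 1591 to 778, 910.0 and 840.3 (log2 -0.68 ± 0.14, adjusted p = 0.0012), a call that was lost with fasted replicate 2 as the only fasted array. Several of these genes are known to answer also to glucocorticoids, FoxO factors or the other PPARs. The genes that did not pass the test included abundant ones such as Fabp1, the liver-type fatty acid-binding protein, at 6800.3, 6813 and 7581 in the fed and 5783, 6764 and 5724 in the fasted arrays.

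In the mitochondrial fatty acid oxidation list 7 of 20 measured genes rose (35.0%) and 1 fell, and the median change was 0.21. Beside Cpt1a the risen members were Eci2 (1.59, an enoyl-CoA isomerase), Acaa2 (1.32, the mitochondrial thiolase), Slc25a20 (1.005, the carnitine carrier), Acadl (0.82, a long-chain acyl-CoA dehydrogenase), Hadha (0.60) and Etfb (0.54), each value a log2 change. Slc25a20 gave 293, 295 and 299 in the fed and 426, 503 and 481 in the fasted arrays, and Acaa2 gave 1772, 1763 and 1601 in the fed and 3655, 3212 and 3291 in the fasted arrays. Cpt2, the inner-membrane partner of Cpt1a, fell instead, at 622, 683 and 735 in the fed and 393, 402 and 387 in the fasted arrays (log2 -0.45 ± 0.08, adjusted p = 0.00048). In the peroxisomal list 8 of 17 rose (47.1%) and 1 fell, with a median of 0.14. Pex11a, which drives peroxisome division, gave 54.4, 89.0 and 54.6 in the fed and 161, 174 and 157 in the fasted arrays (log2 1.69 ± 0.20, adjusted p = 1.5e-05). Acaa1b, a peroxisomal thiolase, rose by 0.91 ± 0.16. Pex19, a peroxisome assembly factor, rose by 0.63 ± 0.12. Hsd17b4, the bifunctional enzyme, rose by 0.61 ± 0.11. Slc27a2, a very long-chain acyl-CoA synthetase, rose by 0.49 ± 0.11. Crot, the peroxisomal carnitine octanoyltransferase, fell by 0.51 on the log2 scale. The median of both oxidation lists turned below 0 when the shift was left in, at -0.13 and -0.20, and the counts were then 5 risen and 5 fallen in the mitochondrial and 3 and 4 in the peroxisomal list. Without fasted replicates 1 and 3, 5 genes rose in each of these lists.

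Acot1, a cytosolic acyl-CoA thioesterase and a well-known PPARα target, was too low in fed null mice to be tested. It gave 17.2, 14.4 and 15.6 in the fed and 76.4, 75.6 and 80.5 in the fasted arrays, and every fasted array was more than 4-fold above every fed array. Acox2, a peroxisomal oxidase of branched chains and bile acid precursors, gave 25.1, 18.6 and 10.7 in the fed and 69.1, 79.5 and 58.5 in the fasted arrays. The other genes of this kind with the highest fasted values were Slc43a3, a purine carrier, at 83.8, 62.4 and 70.3 in the fasted arrays, Slc16a6, a ketone body transporter, at 68.7, 85.9 and 58.9, Timp3, a metalloproteinase inhibitor, at 73.1, 57.5 and 77.9 and Zbtb44 at 67.3, 60.2 and 69.7. All averaged 20 or less in the fed arrays. Passing through the fasted group fixed their direction, and no test is given.

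Genes of fatty acid synthesis moved the other way. Of 13 measured genes of fatty acid synthesis and desaturation, 6 fell (46.2%) and 1 rose, with a median log2 change of -0.25. Beside Scd2, Elovl6, which elongates palmitate, gave 181, 186 and 268 in the fed and 72.5, 60.9 and 57.4 in the fasted arrays (log2 -1.38 ± 0.16, adjusted p = 1.7e-05). Fasn, fatty acid synthase, fell by 0.91 ± 0.15. Elovl5, which elongates polyunsaturated fatty acids, fell by 0.80 ± 0.13. The gene that rose was Srebf1, their transcriptional activator, at 197, 184 and 214 in the fed and 460.1, 457 and 442 in the fasted arrays (log2 1.53 ± 0.18, adjusted p = 1.9e-05). Of 16 cholesterol synthesis genes 5 fell and 1 rose, with a median of 0.00. Idi1, isopentenyl diphosphate isomerase, fell by 0.93 ± 0.16. Sc5d, a sterol desaturase, fell by 0.79 ± 0.10. Tm7sf2, a sterol reductase, fell by 0.67 ± 0.14. Ebp, a sterol isomerase, fell by 0.54 ± 0.09. Msmo1, a sterol demethylase, rose by 0.62 ± 0.13. In sterol and bile acid transport 5 of 13 rose and 2 fell. Nr1h4, the bile acid receptor FXR, rose by 1.26 ± 0.19. Slc10a2, the ileal bile acid uptake carrier, rose by 1.0003 ± 0.17. Abcg8, a subunit of the sterol exporter, rose by 0.93 ± 0.16. Nr1h3, the oxysterol receptor LXRα, fell by 0.71 ± 0.15. Nr0b2, a target of FXR, fell by 0.72 ± 0.18. Among 15 chylomicron and apolipoprotein genes 5 rose and 1 fell, with a median of 0.22. With the shift left in, 1 rose and 4 fell, with a median of -0.12, and after quantile normalization 3 rose and 1 fell. Dgat2, which makes triglyceride, gave 760.2, 674 and 798 in the fed and 2523, 2196 and 2492 in the fasted arrays (log2 2.03 ± 0.12, adjusted p = 7.4e-08), and its other probe set gave 2.56. Apoa1, the main protein of HDL, rose by 0.59 ± 0.07. Sar1b, needed to export chylomicrons, rose by 0.53 ± 0.09. Plin3, a lipid droplet coat, was the member that fell, by 0.39. Clps, listed here and made mainly by the pancreas, counted as risen with 1.49 but changed by 0.03 without the pancreas-rich fasted replicates 1 and 3.

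Genes of gluconeogenesis and glutamine use rose in 9 of 15 cases, and 2 fell. Pck1 gave 527, 625 and 392 in the fed and 3499.7, 2892 and 3031 in the fasted arrays (log2 2.97 ± 0.16, adjusted p = 3.3e-08). G6pc, glucose-6-phosphatase, gave 223, 170.0 and 139 in the fed and 672, 859.8 and 706 in the fasted arrays (log2 2.43 ± 0.29, adjusted p = 1.7e-05). Slc37a4, the glucose-6-phosphate carrier that works with it, gave 143, 132 and 115 in the fed and 464, 374 and 387 in the fasted arrays (log2 1.99 ± 0.18). All 3 genes were higher in each fasted array than in any fed array, as were 1755 of the 5824 genes tested relative to the shift. Glul, glutamine synthetase, rose by 1.79 ± 0.25. Got1, the cytosolic aspartate transaminase, rose by 1.25 ± 0.18. Glud1, glutamate dehydrogenase, rose by 1.25 ± 0.10. Gpt, alanine transaminase, rose by 1.01 ± 0.12. Fbp1, fructose bisphosphatase, rose by 0.53 ± 0.11. Ppargc1a, the coactivator PGC-1α that drives this program in liver, fell from 93.9, 96.1 and 89.8 to 25.4, 33.1 and 20.4 (log2 -1.51 ± 0.18, adjusted p = 1.9e-05), and Oat, ornithine aminotransferase, fell by 0.48 ± 0.10. Glycolysis and lactate genes numbered 0 risen and 4 fallen of 16 (25.0%), close to the background. Those were Slc16a3, a lactate exporter, with -1.29 ± 0.21, Pfkfb3, which makes the activator of phosphofructokinase, with -0.97 ± 0.25, Pgam1 with -0.42 ± 0.08 and Tpi1 with -0.40 ± 0.08. In amino acid breakdown 3 of 14 rose and 3 fell, or 1 and 6 with the shift left in. Prodh, proline dehydrogenase, gave 80.7, 66.3 and 100.1 in the fed and 331, 338 and 295 in the fasted arrays (log2 2.32 ± 0.27, adjusted p = 1.4e-05), while Aldh18a1, the enzyme that makes proline precursors, fell by 0.98 ± 0.15. Of 18 genes for the digestion and uptake of sugars and peptides 5 rose and 0 fell, against 0 and 4 with the shift left in and 2 and 0 after quantile normalization. Slc15a1, the peptide carrier PEPT1, rose by 0.56 ± 0.11. Slc5a1, the sodium-glucose carrier, rose by 0.52 ± 0.13. Slc2a2, the basolateral glucose carrier, rose by 0.57 ± 0.17. Mep1a, a brush border protease, rose by 0.69 ± 0.16. Without fasted replicates 1 and 3, 3 of the 18 rose.

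Glucocorticoid-induced genes had the highest share of rises among the lists with at least 10 measured members. Of 19 measured members 15 rose (78.9%) and 1 fell, and the median log2 change was 1.55. Leaving out fasted replicates 1 and 3 also gave 15 risen members. Fkbp5 gave 39.2, 42.4 and 38.7 in the fed and 572, 459.9 and 458 in the fasted arrays (log2 3.96 ± 0.39, adjusted p = 3.7e-06). Errfi1 gave 159, 238 and 140.1 in the fed and 973, 668 and 927 in the fasted arrays (log2 2.61 ± 0.22). Ddit4, an inhibitor of mTORC1, gave 52.9, 68.7 and 49.5 in the fed and 259, 154 and 220.2 in the fasted arrays (log2 2.21 ± 0.25, adjusted p = 1.4e-05). Sgk1, a kinase that regulates sodium uptake, rose by 2.09 ± 0.27. Dusp1, a MAP kinase phosphatase, rose by 1.96 ± 0.17. Cebpd, the transcription factor C/EBPδ, rose by 1.76 ± 0.34. Klf9, a Krüppel-like factor, rose by 1.55 ± 0.09. Cdkn1a, the cell cycle inhibitor p21, rose by 1.25 ± 0.15. Tsc22d3, the leucine zipper GILZ, rose by 1.20 ± 0.14. Nfkbia, the inhibitor of NF-κB, rose by 0.77 ± 0.13. Pik3r1, the regulatory subunit of PI3-kinase, rose by 1.06 ± 0.23. The receptor gene Nr3c1 did not pass the test, at 498, 446 and 378 in the fed and 323, 349.6 and 292 in the fasted arrays, and Gadd45a, a growth arrest gene, fell by 0.60. Klf15, a partner of the receptor, was not tested, at 11.9, 11.7 and 11.9 in the fed and 81.2, 61.8 and 50.3 in the fasted arrays; it was named after its values were seen.

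Of 11 circadian clock genes 4 rose and 1 fell. Nr1d1 gave 34.6, 33.3 and 65.2 in the fed and 474, 432 and 307 in the fasted arrays (log2 3.57 ± 0.27, adjusted p = 4.6e-07). Cry2, a repressor of the loop, gave 20.3, 30.0 and 29.4 in the fed and 101, 106 and 106 in the fasted arrays (log2 2.34 ± 0.22). Tef, a clock output factor, rose by 1.49 ± 0.24. Nr1d2, REV-ERBβ, rose by 0.81 ± 0.22. Csnk1d, the kinase that marks PER proteins for decay, fell from 442, 426 and 481 to 195, 154 and 191 on its main probe set (log2 -0.99 ± 0.13). Another of its probe sets was called risen. The hour at which each group was killed was not labelled. In the list of insulin signalling and FoxO targets 5 of 18 rose and 3 fell, or 3 and 6 with the shift left in. Foxo1 itself rose by 1.21 ± 0.12. Eif4ebp2, a translation inhibitor, rose by 0.60 ± 0.08 on its main probe set, while another was called fallen. Ccng2, a FoxO target, fell by 0.74. Without fasted replicates 1 and 3, 1 member of this list fell.

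**Figure D4:**
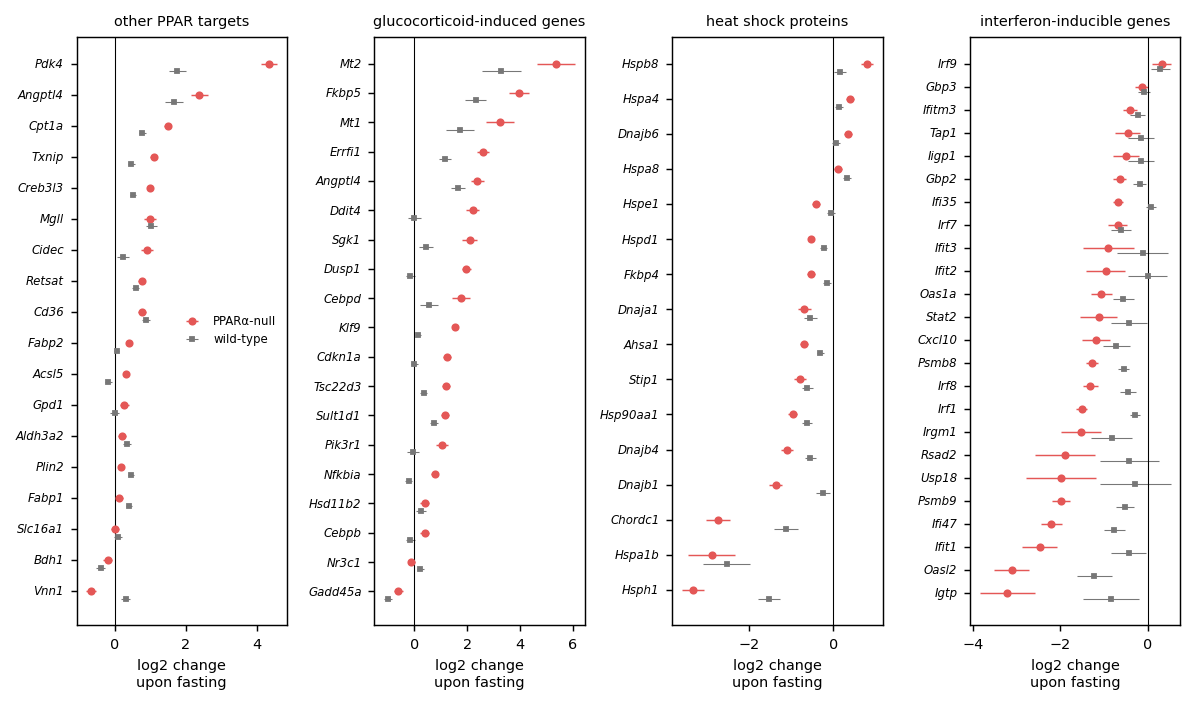
Log2 change upon fasting of every measured member of 4 lists, ordered by the PPARα-null value; red circles are PPARα-null and grey squares wild-type mice, and bars are the SE of the limma fit (n = 3 arrays per group). In the glucocorticoid list 15 of 19 null values passed the test as rises, and in the heat shock list 12 of 16 passed as falls.

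Metallothioneins bind zinc and copper, and their genes are switched on by the metal-responsive factor MTF-1 and by glucocorticoids. Of 16 measured metallothionein and zinc transport genes 6 rose (37.5%) and 3 fell. Mt1 gave 518, 871 and 871 in the fed and 5389, 5101 and 5789 in the fasted arrays (log2 3.23 ± 0.53, adjusted p = 0.00023). Mtf1 itself gave 22.9, 20.4 and 19.6 in the fed and 109.7, 145 and 122 in the fasted arrays on its main probe set (log2 2.91 ± 0.11, adjusted p = 2.0e-09), but its other probe set fell by 0.73. Slc30a2, a zinc exporter into vesicles, gave 45.4, 41.2 and 43.0 in the fed and 146, 162 and 140.5 in the fasted arrays (log2 2.13 ± 0.13). Slc30a1, the plasma membrane exporter, rose by 1.42 ± 0.23. Slc30a4, another exporter, rose by 0.71 ± 0.12. Slc39a4, the intestinal zinc importer, fell from 1292, 1176 and 1083 to 486, 465 and 492 (log2 -0.96 ± 0.18, adjusted p = 0.00053). Slc39a9, a zinc importer, fell by 0.94 ± 0.14. Slc30a9 fell by 1.13 ± 0.12. The promoters of the metallothionein genes are shown because both genes lead the response and because metal response elements are its best-known control sites. The letters of the core element, TGCNCNC on either strand, are in capitals in the 250 bases before each start (RefSeq, GRCm38.p6, plus strand, chromosome 8: chr8:94172368-94172617 for Mt2 and chr8:94178839-94179088 for Mt1).
Mt2: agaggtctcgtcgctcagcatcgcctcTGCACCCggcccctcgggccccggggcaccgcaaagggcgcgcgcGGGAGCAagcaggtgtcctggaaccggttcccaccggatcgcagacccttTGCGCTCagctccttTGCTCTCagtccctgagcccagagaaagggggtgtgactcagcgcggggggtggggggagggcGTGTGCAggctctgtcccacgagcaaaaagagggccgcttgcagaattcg
Mt1: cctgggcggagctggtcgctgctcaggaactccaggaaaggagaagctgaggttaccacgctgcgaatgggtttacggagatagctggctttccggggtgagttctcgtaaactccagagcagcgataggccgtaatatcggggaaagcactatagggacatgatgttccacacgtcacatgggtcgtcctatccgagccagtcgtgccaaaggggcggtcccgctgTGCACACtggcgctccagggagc
The Mt2 stretch held 5 matches and the Mt1 stretch 1, with 6 and 3 when the first 50 bases after the start were included. In that 300-base window the letters occurred in all 6 risen members of the list and in 0 of the 2 fallen members with a promoter in the table. They are short and common, in 53.6% of all 27025 genes with a promoter and in 64.1% of the genes tested. The glucocorticoid response element, by contrast, was matched in 0.537% of all promoters, in 0.355% of the genes tested and in 2 of the 13 risen glucocorticoid-induced genes with a promoter, Mt1 and Sgk1. No match to the PPAR direct repeat was found in the promoters of the 9 risen PPAR targets, against 0.0481% of all promoters and 0.0209% of the genes tested, and the E-box was matched in 1 of the 4 risen clock genes, Tef, against 8.09% and 12.5%. For the amino acid response element the count was 1 of 2 risen genes, Gars, and 1 of 4 fallen genes, Atf3, of the ATF4 list, against 4.51% and 2.53%.

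Heat shock proteins fell as a group. These chaperones are induced by the factor HSF1 when proteins unfold. Of 16 measured members 12 fell (75.0%) and 2 rose, with a median log2 change of -0.69. Hsph1 gave 186, 345 and 359.5 in the fed and 21.6, 23.5 and 22.0 in the fasted arrays (log2 -3.33 ± 0.26, adjusted p = 6.0e-07). Hspa1b, the inducible HSP70, gave 47.2, 136 and 108 in the fed and 9.37, 9.56 and 9.54 in the fasted arrays (log2 -2.89 ± 0.55, adjusted p = 0.00076), and its probes may also read the near-identical Hspa1a. Chordc1, an HSP90 co-chaperone, gave 202, 297 and 309 in the fed and 19.6, 46.6 and 33.9 in the fasted arrays (log2 -2.74 ± 0.28, adjusted p = 5.5e-06). The fed arrays of these genes spread more than the fasted ones, fed replicate 1 being lowest in all 3 cases. Dnajb1, the HSP40 partner of HSP70, fell by 1.36 ± 0.16. Dnajb4, of the same family, fell by 1.10 ± 0.13. Hsp90aa1, the inducible HSP90, fell by 0.96 ± 0.12. Stip1, which links HSP70 to HSP90, fell by 0.79 ± 0.14. Hspd1, the mitochondrial HSP60, fell by 0.52 ± 0.08. Hspe1, its partner HSP10, fell by 0.40 ± 0.09. Hspb8 rose by 0.80, and Hspa4 rose by 0.40 on its main probe set while another probe set fell by 2.47. Without fasted replicates 1 and 3, 9 members fell. The promoters of the group were searched for the heat shock element: the letters GAANNTTC, which read the same on both strands, occurred in 7 of the 11 fallen members with a promoter (63.6%), against 9.04% of all promoters and 7.31% of the genes tested. The fallen members with a match were Chordc1, Dnaja1, Fkbp4, Hspa1b, Hspd1, Hspe1 and Hsph1, of which Hspd1 and Hspe1 lie head to head and share promoter sequence; Hspb8, which rose, also held them. As examples, the 250 bases before the start of the strongly fallen Hspa1b (GRCm38.p6, chr17:34959239-34959488, minus strand) and of the mildly fallen Hspe1 (chr1:55087898-55088147, plus strand) are printed with the match in capitals.
Hspa1b: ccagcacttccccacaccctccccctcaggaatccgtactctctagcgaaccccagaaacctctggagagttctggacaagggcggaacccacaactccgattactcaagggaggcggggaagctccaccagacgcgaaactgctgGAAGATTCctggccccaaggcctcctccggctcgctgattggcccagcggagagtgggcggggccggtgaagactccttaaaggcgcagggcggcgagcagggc
Hspe1: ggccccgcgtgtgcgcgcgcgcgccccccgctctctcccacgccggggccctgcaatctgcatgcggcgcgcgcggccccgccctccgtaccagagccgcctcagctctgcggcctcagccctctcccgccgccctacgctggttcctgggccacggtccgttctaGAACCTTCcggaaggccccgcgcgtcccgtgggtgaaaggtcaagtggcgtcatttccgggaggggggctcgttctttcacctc

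Chaperones of the endoplasmic reticulum fell as well. In this list 16 of 25 measured members fell (64.0%), 2 rose and the median was -0.68. Creld2, a chaperone cofactor induced by ER stress, gave 252, 367 and 402 in the fed and 70.8, 65.9 and 68.1 in the fasted arrays (log2 -1.95 ± 0.16, adjusted p = 8.4e-07). Hyou1, an ER relative of HSP70, fell by 1.67 ± 0.13. Sdf2l1, a cofactor of BiP, fell by 1.19 ± 0.11. Ero1a, which oxidises disulfides, fell by 1.19 ± 0.17. Pdia6, a disulfide isomerase, fell by 1.10 ± 0.13. Hspa5, the master chaperone BiP, fell by 0.93 ± 0.10. Herpud1, a part of the ER degradation machinery, went against the group, from 297, 367 and 385 to 1239, 864 and 886 (log2 1.84 ± 0.19, adjusted p = 6.5e-06). Sel1l, of the same machinery, rose by 0.70 on its main probe set, whereas another fell by 0.42. The count of fallen members was 13 without fasted replicates 1 and 3. Among 16 genes of ATF4 and amino acid stress 2 rose and 4 fell: Ddit4 and Gars rose, and Cebpg, with -2.50 ± 0.11, Ddit3, the factor CHOP, with -1.30 ± 0.15, Atf3 with -1.35 ± 0.34 and Shmt2 with -0.87 ± 0.15 fell. Cebpg gave 305, 251 and 262 in the fed and 39.5, 33.2 and 41.6 in the fasted arrays.

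Interferon-inducible genes had a median log2 change of -1.16. Of 24 measured members 14 fell (58.3%) and 0 rose. Ifit1 gave 425, 379.6 and 1623 in the fed and 85.1, 119.7 and 73.5 in the fasted arrays (log2 -2.48 ± 0.40, adjusted p = 0.00023). Igtp gave 95.5, 91.5 and 493 in the fed and 14.6, 17.5 and 10.4 in the fasted arrays and Oasl2 116, 79.2 and 347 in the fed and 15.4, 15.5 and 10.2 in the fasted arrays. Fed replicate 3 stood above the other fed arrays for each of these genes. Without it 12 members fell and 1 rose, with a median of -0.63, and without fasted replicates 1 and 3 there were 8, Igtp no longer among them. Ifi47, another such GTPase, fell by 2.21 ± 0.24. Irf1, an interferon regulatory factor, fell by 1.52 ± 0.12. Irf8, of the same family, fell by 1.31 ± 0.18. The immunoproteasome subunits Psmb9, at 421, 355 and 539 in the fed and 78.01, 118 and 70.1 in the fasted arrays (log2 -1.99 ± 0.21, adjusted p = 6.5e-06), Psmb8, with -1.27 ± 0.13, and Psmb10, with -0.90 ± 0.12, had the largest falls of the proteasome list. In that list 7 of 36 fell (19.4%, below the background of 24.0%) and 0 rose. Lymphocyte and plasma cell genes fell in 7 of 13 cases (53.8%) and rose in 0. Ighm gave 244, 192 and 144 in the fed and 23.0, 18.5 and 8.85 in the fasted arrays (log2 -3.26 ± 0.45). Gzmb, granzyme B of intraepithelial lymphocytes, gave 93.7, 63.7 and 76.1 in the fed and 9.06, 7.17 and 10.1 in the fasted arrays (log2 -2.81 ± 0.25, adjusted p = 1.8e-06), while Gzma, at 869, 693 and 592 in the fed and 409, 507 and 412 in the fasted arrays, did not pass the test. Cd79a, of B cells, fell by 1.43 ± 0.28. Pou2af1, a B cell coactivator, fell by 1.33 ± 0.19. For antigen presentation by MHC class II 3 of 8 fell: H2-DMa, H2-Eb1 and H2-Ab1, with -1.57, -0.77 and -0.49 on the log2 scale. None of the 12 mast cell and eosinophil genes, and none of the red cell genes, was above 20 in fed null mice.

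Genes of the dividing crypt fell. In the cell cycle and DNA replication list 16 of 29 fell (55.2%) and 1, Rfc3, rose; 12 fell without fasted replicates 1 and 3. Rrm2, a subunit of ribonucleotide reductase, gave 131, 141 and 160.3 in the fed and 39.5, 35.2 and 33.7 in the fasted arrays (log2 -1.66 ± 0.19, adjusted p = 1.6e-05). Ccnd2, a G1 cyclin, gave 422, 408 and 382 in the fed and 147, 148 and 142 in the fasted arrays (log2 -1.13 ± 0.14, adjusted p = 1.9e-05). Top2a, topoisomerase II, fell by 1.07 ± 0.15. Mcm5, of the replicative helicase, fell by 1.03 ± 0.16. Crypt and Wnt genes fell in 5 of 11 cases (45.5%) and 1 rose. Axin2, a direct Wnt target, gave 33.2, 30.2 and 33.1 in the fed and 9.48, 11.8 and 10.9 in the fasted arrays (log2 -1.25 ± 0.11, adjusted p = 1.5e-06). Ccnd1, cyclin D1, fell by 0.84 ± 0.19. Smoc2, a crypt stem cell marker, fell by 0.65 ± 0.13. Myc, a driver of growth, fell by 0.88 ± 0.18. Bmi1, a stem cell regulator, rose by 0.83 ± 0.16. Of cell cycle inhibitors and p53 targets, 2 of 15 rose, Pmaip1 and Cdkn1a, and 4 fell, among them Rb1, the retinoblastoma protein, with -0.71 ± 0.11. Of 11 goblet cell genes 2 rose and 3 fell. Atoh1, the factor that specifies secretory cells, fell from 162, 166 and 112 to 15.9, 31.1 and 11.1 (log2 -2.70 ± 0.29, adjusted p = 7.3e-06). Agr2, which folds mucins, fell by 0.90 ± 0.13. Muc13, a membrane mucin, fell by 0.65 ± 0.12. Muc3, another membrane mucin, rose by 1.18 ± 0.09. Of 10 Paneth cell products 1 rose, Pla2g2a, and 2 fell, Mptx1 and Reg3a. Without fasted replicate 2 none of them fell, and without fed replicate 3 there was 1. Of 14 enteroendocrine genes 4 rose and 0 fell, led by Chga, with 1.34 ± 0.18. The count of rises was 1 without fasted replicates 1 and 3, and without fed replicate 3, 1 rose and 1 fell.

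Matrix genes moved in both directions. Of 18 collagen and matrix genes 7 fell (38.9%, against 24.0% over all genes tested) and 4 rose (22.2%, near the background of 18.8%). Col3a1 gave 1185, 1003 and 871 in the fed and 111, 182 and 136 in the fasted arrays (log2 -2.52 ± 0.17, adjusted p = 2.3e-07), and Col1a1, of type I collagen, fell by 1.76 ± 0.13. Serpinh1, the collagen chaperone, fell by 1.75 ± 0.15. Col6a3, of type VI collagen, fell by 1.72 ± 0.18. Col4a1, of the basement membrane, rose by 0.57 ± 0.11. Timp2, a metalloproteinase inhibitor, rose by 0.67 ± 0.14. Without fasted replicates 1 and 3, 7 fell and 1 rose. Smooth muscle genes fell in 2 of 13 cases, Mylk and Tpm1, and 1 rose, Csrp1. In the tight junction and brush border list 5 of 18 fell (27.8%, near the background of 24.0%) and 1, Ezr, rose. Cldn23, a claudin, fell by 1.88 ± 0.11. Cldn2 fell by 1.70 ± 0.20. Cldn15 fell by 0.79 ± 0.09. Marveld2, tricellulin, fell by 0.91 ± 0.11. Of 11 enterocyte markers 3 rose and 0 fell, against 0 and 6 with the shift left in and 1 and 1 after quantile normalization. Fat is the other tissue that a gut sample can hold. Of 5 measured adipocyte genes 4 rose: Fabp4, at 254, 301 and 445 in the fed and 1333, 1611 and 1361 in the fasted arrays (log2 2.48 ± 0.18, adjusted p = 3.1e-07), Pparg (1.62 ± 0.19), Lipe (1.03 ± 0.30) and Cidec. The summed intensity of the 9 list genes on the array was 506 to 893 in the fed and 1760.0 to 2139 in the fasted null arrays. The defining adipocyte transcripts were low throughout: Adipoq lay between 3.17 and 13.3 in the fed and between 4.21 and 6.12 in the fasted null arrays, and Lep between 4.50 and 5.23 in all of them. The part of fat in the changes of Fabp4, Pparg, Cidec and Lipe was not tested.

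The lists of transporters and enzymes that handle drugs and other foreign compounds held both risen and fallen genes. Of 26 drug and ion transporters 10 rose (38.5%) and 7 fell (26.9%), or 6 and 10 with the shift left in. The share fallen was near the background of 24.0%. Slc20a1, a sodium-dependent phosphate carrier, gave 61.6, 116 and 97.4 in the fed and 368, 473 and 354 in the fasted arrays (log2 2.49 ± 0.35, adjusted p = 6.5e-05). Slc47a1, the organic cation exporter MATE1, gave 86.6, 123 and 136 in the fed and 459.8, 519.5 and 425 in the fasted arrays (log2 2.38 ± 0.20, adjusted p = 1.2e-06). Abcb1a, the efflux pump P-glycoprotein, rose by 1.20 ± 0.22. Slc13a2, a citrate carrier, rose by 1.09 ± 0.15. Slc34a2, the apical phosphate carrier, fell from 1113, 945 and 943 to 212, 225 and 242 (log2 -1.80 ± 0.26, adjusted p = 8.3e-05), so that the pair of phosphate carriers moved in opposite directions. S100g, the calcium-binding protein calbindin-D9k, fell by 1.46 ± 0.22. Aqp8, a water channel, fell by 1.08 ± 0.14. Abcc3, a conjugate exporter, fell by 0.96 ± 0.20. Of 10 iron genes 1 rose and 2 fell. The mitochondrial iron carrier Slc25a28, mitoferrin-2, gave 95.4, 90.1 and 106 in the fed and 241, 267 and 359.9 in the fasted arrays (log2 1.89 ± 0.14) while its relative Slc25a37, mitoferrin-1, gave 219, 228 and 189 in the fed and 44.6, 66.3 and 55.0 in the fasted arrays (log2 -1.61 ± 0.13), and Slc40a1, ferroportin, fell by 0.78 ± 0.25. The call for Slc40a1 was lost without any 1 of the fasted arrays or without fed replicate 3. Of 16 cytochrome P450 genes 6 rose, Cyp27a1 among them, and 1 fell. Cyp2j6, an epoxygenase, rose by 1.62 ± 0.21. Cyp4b1 rose by 1.21 ± 0.13. Cyp3a11, the main drug-oxidising form, rose by 0.87 ± 0.10, and Cyp4f16 was the gene that fell, with -1.25 ± 0.15. Of 18 transferases and carboxylesterases 4 rose (22.2%, near the background of 18.8%) and 1 fell, or 4 and 7 with the shift left in. Ces1d gave 33.4, 48.2 and 24.9 in the fed and 397, 346 and 441 in the fasted arrays (log2 3.86 ± 0.19, adjusted p = 1.5e-08). Sult1d1, a sulfotransferase of amines, rose by 1.17 ± 0.15. Ces1e, a carboxylesterase, rose by 0.997 ± 0.15. Slc35b3, a carrier of the sulfate donor, rose by 0.72 ± 0.11, while Ugt2b5, a glucuronosyltransferase, fell from 484, 608 and 536 to 102, 128 and 132 (log2 -1.83 ± 0.24). In the glutathione and NRF2 list 4 of 37 rose and 9 fell (24.3%), a share near the background of 24.0%. Keap1, the repressor of NRF2, fell by 1.21 ± 0.15. Srxn1, sulfiredoxin, fell by 0.96 ± 0.09. Gclc, the rate-limiting enzyme of glutathione synthesis, rose by 1.03 ± 0.23. Of 13 vitamin A genes 6 rose and 1 fell. Aldh1a3, which makes retinoic acid, rose by 1.89 ± 0.13. Rxra, the partner of PPARs, rose by 0.99 ± 0.12. Adh4, an alcohol dehydrogenase, fell by 1.64 ± 0.17. Without fasted replicates 1 and 3, 3 of these genes rose.

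The list of nuclear receptors and their partners held both risen and fallen genes. In this list 5 of 14 rose (35.7%, against 18.8% over all genes tested) and 3 fell (21.4%, near the background of 24.0%). Nr1i3, the receptor CAR, rose by 1.01 ± 0.15. Nrip1, a corepressor, rose by 0.99 ± 0.12. Hnf4a, a main regulator of the enterocyte, gave 1709, 1779 and 1867 in the fed and 987, 965 and 974 in the fasted arrays (log2 -0.53 ± 0.09, adjusted p = 0.00026), and its relative Hnf4g fell by 1.07 ± 0.15. Splicing regulators had 14 of 33 risen (42.4%) and 6 fallen, with a median of 0.00, and 7 risen and 16 fallen with the shift left in. Rbm39, a splicing coactivator, gave 259, 243 and 217 in the fed and 1014, 856 and 896 in the fasted arrays (log2 2.28 ± 0.09, adjusted p = 4.3e-09), and its 5 other tested probe sets rose as well, by 0.74 to 2.84. Srsf6, a splicing factor, rose by 1.40 on its main probe set and by 1.63 on another but fell by 1.08 on the remaining one. Ddx17, an RNA helicase, fell by 1.33 ± 0.14. Luc7l3 fell by 1.22 ± 0.09. Srsf1, a splicing activator, fell by 0.99 ± 0.12. Of 1883 genes with at least 2 tested probe sets, whether called or not, 77 had probe sets called in both directions. A change on 1 probe set there cannot be told apart from a change of transcript form. Immediate early genes had 4 of 17 risen and 6 fallen. Dusp6, an ERK phosphatase, fell by 1.67 ± 0.21. Jun, an AP-1 subunit, fell by 0.88 ± 0.26, a call lost without any 1 of fasted replicates 1 and 2 and fed replicates 1 and 2. Of 58 respiratory chain and ATP synthase genes 0 rose and 4 fell, with a median of -0.04. With the shift left in 29 of them fell, with a median of -0.38, and after quantile normalization 11. Of 37 ribosomal protein genes 3 rose and 0 fell, with a median of 0.24 relative to the shift and -0.10 with it left in, of 23 ribosome biogenesis genes 2 rose and 2 fell, and of 24 autophagy and lysosome genes 4 rose and 4 fell, with 1 and 2 without fasted replicates 1 and 3. With the shift left in these were 1 risen and 8 fallen and 1 risen and 10 fallen.

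The size of the response was then compared between genotypes, in the same fit, as the difference of the fasting changes. Of 5824 genes, 522 had a higher change in PPARα-null than in wild-type mice (8.96%) and 779 a lower one (13.4%), at an adjusted p under 0.05 and a difference over 1.3-fold. In wild-type mice 503 of these genes rose and 524 fell by the same rule as in null mice. Most of the genes with a higher change, 439, were called risen in null mice, and 694 of those with a lower change were called fallen. Nr1d1 was 49.99, 69.2 and 96.9 in fed and 54.1, 60.02 and 65.2 in fasted wild-type arrays, a change of 0.06 ± 0.27 against 3.57 ± 0.27 in null mice (difference 3.52 ± 0.38, adjusted p = 6.9e-05). Ces1d was 38.8, 36.1 and 32.9 in fed and 41.5, 42.2 and 47.6 in fasted wild-type arrays (difference 3.29 ± 0.26, adjusted p = 6.4e-06). Pdk4 started higher in wild-type mice, at 149, 150.1 and 147, and reached 579.6, 391 and 315, so that its change was 1.76 ± 0.24 against 4.34 ± 0.24 (difference 2.58 ± 0.33, adjusted p = 0.00024). Cirbp differed by 2.61 ± 0.33, Slc20a1, whose fed wild-type replicate 3 stood apart at 367 beside 122 and 123, by 2.69 ± 0.49, Mtf1 by 2.31 ± 0.16, Ddit4 by 2.21 ± 0.36 and Pmaip1 by 2.201 ± 0.31. Nfe2l2 was 1425, 1560.5 and 1611 in fed and 1005, 1239.5 and 1337 in fasted wild-type arrays, against 50.3, 59.995 and 30.2 in fasted null arrays (difference -4.68 ± 0.28, adjusted p = 8.4e-07). The fed null arrays overlapped the fed wild-type arrays, and the 3 fasted null arrays lay far below all the others. Irgm2 differed by -3.84 ± 0.61, Parp14 by -3.26 ± 0.37, Trmt1l by -3.23 ± 0.28, Tardbp by -3.20 ± 0.17, Tmem140 by -3.13 ± 0.24, Fam136a by -2.90 ± 0.14 and Nat8f4 by -2.79 ± 0.29.

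**Figure D5:**
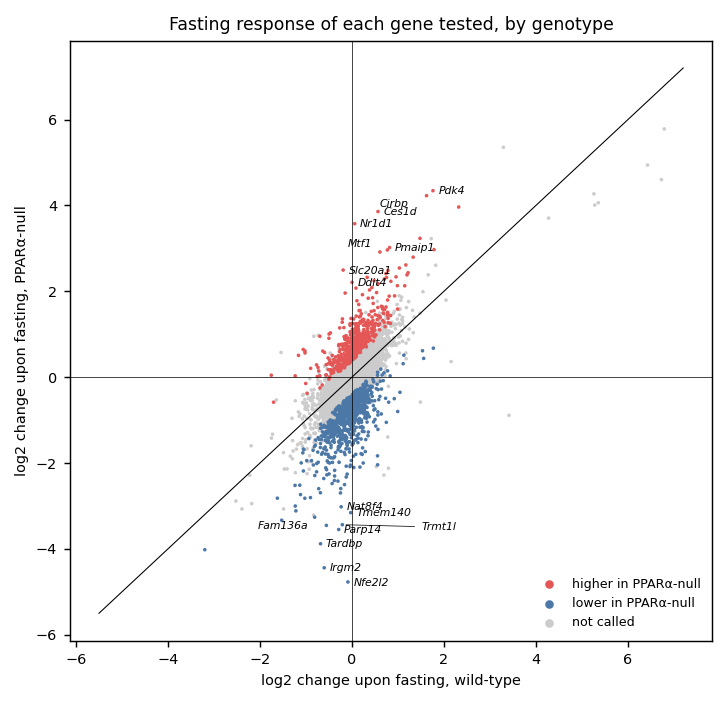
Log2 change upon fasting of the 5824 genes tested, wild-type on the horizontal and PPARα-null on the vertical axis; red genes had a higher and blue genes a lower change in null mice by the test of the difference (522 and 779), grey genes neither. The named genes are the 8 largest differences in each direction, such as Nr1d1 at 0.06 and 3.57 and Nfe2l2 at -0.09 and -4.77.

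By list, the differences ran as follows. Of the 19 glucocorticoid-induced genes 10 had a higher change in null mice and 0 a lower one, with medians of 1.55 in null and 0.25 in wild-type mice. Dusp1 was 45.4, 44.9 and 44.8 in fed and 32.5, 37.0 and 31.1 in fasted wild-type arrays, and differed by 2.11 ± 0.24 (adjusted p = 9.9e-05). Of the 18 PPAR targets 5 were higher and 1 lower, with medians of 0.58 and 0.42, and of the mitochondrial oxidation genes 3 were higher and 4 lower, with medians of 0.21 and 0.26. The medians themselves were not compared by a test. Vnn1, which fell in null mice, was 2056, 1644 and 1555 in fed and 2074, 1435 and 1839 in fasted wild-type arrays (difference -0.98 ± 0.20, adjusted p = 0.0040). Fabp6, the ileal bile acid-binding protein, gave 7422, 8395 and 5992 in the fed and 5656, 6227 and 5584 in the fasted arrays, with no call in null mice, and fell from 7231, 7898 and 6457 to 2043, 2798 and 2764 in wild-type mice (difference 1.26 ± 0.20, adjusted p = 0.0011). Over all genes tested, 8.96% had a higher and 13.4% a lower change in null mice. ER chaperones had a lower change in null mice in 11 of 25 cases, interferon-inducible genes in 8 of 24, cell cycle genes in 7 of 29 and heat shock proteins in 4 of 16. For glutathione and NRF2 genes 7 of 37 had a higher and 5 a lower change in null mice, and 18 of them fell in wild-type mice. Fasted wild-type mice carried pancreas signal in all 3 arrays, at 8.48 to 9.45. With fasted null replicate 2 as the only fasted null array, 259 genes were higher and 512 lower in null mice.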

How the data were processed

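Total RNA of the small intestine (TRIzol extraction, DNase and column clean-up) was hybridised by the authors to Affymetrix mouse 430A arrays. The deposited values are linear intensities that the authors made with GCRMA (version 2.20 per the submitters' processing notes); no array dates were given in the sources used here. Groups were taken from the sample titles. Of 22690 probe sets, 20393 carried 1 gene symbol in the platform annotation, 691 several and 1606 none; only the first kind was named. Intensities were taken to log2 and fitted with limma 3.58.1 in R 4.3.3 over all 12 arrays, with a mean for each of 4 groups. The median fasted-minus-fed difference over probe sets with a PPARα-null fed mean above 20 was removed within each genotype, and these 9351 probe sets were tested and adjusted together by the Benjamini-Hochberg method. A gene is represented by its probe set with the highest mean log2 intensity over the 12 arrays. The fit was tested on simulated data. P-values rest on the spread within groups, pooled over the 4 groups and moderated across probe sets by limma. The shift was subtracted before the fit as a fixed value. Each group held 3 arrays, and that number limits the precision.

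The comparison, the gene lists and their members were chosen with earlier results of these data known. Of 1317 list entries 1154 were on the array. Genes were named by rule: the 15 largest rises and falls without overlap between fed and fasted arrays, up to 4 risen, 4 fallen and 3 abundant uncalled members of each list, the 6 highest fasted genes with a low fed level, and the 8 largest differences between genotypes in each direction. Klf15, Acadl, Cd36, Cebpd, Creb3l3, Dnajb4, Etfb, Fbp1, Glud1, Got1, Gpt, Hadha, Hsd17b4, Hsp90aa1, Hspa5, Hspd1, Hspe1, Irf1, Irf8, Klf9, Mgll, Nfkbia, Pdia6, Pex19, Sgk1, Slc27a2, Slc30a1, Slc30a4, Stip1 and Tsc22d3 were added from the lists after their values were seen. Promoter windows of 300 bases came from RefSeq (GRCm38.p6). Alternatives changed the normalization, the shift, the level filter, the threshold, the choice of probe set, the variance model, the samples in the fit, a replicate block and a pancreas covariate.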

Additional observations from a re-analysis of the deposited data

Results flagged for a closer look

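The change upon fasting differed between PPARα-null and wild-type mice for 522 genes with a higher and 779 with a lower change in null mice (limma, adjusted p under 0.05 and a difference over 1.3-fold). The genes with the largest differences were singled out by the test of the difference itself, and each rests on 3 arrays per group. Nr1d1 differed by 3.52 ± 0.38, Ces1d by 3.29 ± 0.26, Slc20a1 by 2.69 ± 0.49, Cirbp by 2.61 ± 0.33, Pdk4 by 2.58 ± 0.33, Mtf1 by 2.31 ± 0.16, Ddit4 by 2.21 ± 0.36 and Pmaip1 by 2.201 ± 0.31 on the log2 scale, all higher in null mice. Nfe2l2 differed by -4.68 ± 0.28, Irgm2 by -3.84 ± 0.61, Parp14 by -3.26 ± 0.37, Trmt1l by -3.23 ± 0.28, Tardbp by -3.20 ± 0.17, Tmem140 by -3.13 ± 0.24, Fam136a by -2.90 ± 0.14 and Nat8f4 by -2.79 ± 0.29, all lower in null mice. For Mtf1 and Tardbp another probe set of the gene went the opposite way in null mice, as given above. The null and wild-type mice are different substrains, and substrain and genotype cannot be told apart.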

How the results depend on the processing

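Against 1093 risen and 1400 fallen genes in PPARα-null mice, leaving the shift in gave 443 and 2672, and a level filter at 100 gave 553 and 806. No level filter gave 2877 risen and 1579 fallen, so that rises then outnumbered falls. For the difference between genotypes, 522 higher and 779 lower, the filter at 100 gave 280 and 467, and leaving out fasted null replicates 1 and 3 gave 259 and 512. The other alternatives stayed within 1.5 times of these counts. Leaving out each array in turn gave 1009 to 1072 risen, 1298 to 1361 fallen, 421 to 524 higher and 661 to 740 lower genes. The numbers do not pair the samples, since same-numbered fed and fasted arrays correlated at -0.075, 0.11 and 0.149 in their deviations; with the replicate number as a block the counts were 1099 risen, 1398 fallen, 507 higher and 750 lower. A covariate for pancreas signal gave 936 risen, 868 of them among the 1093, and 1135 fallen, 1092 of them among the 1400. The cause of the shift was not tested.

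Of 224 genes with a named change, none reversed its direction under the alternatives that kept the main probe set and the level filter. Csnk1d, Eif4ebp2, Hspa4, Mtf1, Sel1l, Srsf6 and Tardbp each had another probe set called in the opposite direction. The shift left in ended 30 calls (Apoa1, Bmi1, Cela2a, Clps, Col4a1, Csrp1, Eif4ebp2, Etfb, Ezr, Fabp2, Fbp1, Gars, Gclc, Hadha, Hsd17b4, Hspa4, Lipe, Mep1a, Msmo1, Nr1d2, Pex19, Rfc3, Sar1b, Sel1l, Slc15a1, Slc27a2, Slc2a2, Slc30a4, Slc5a1 and Timp2). Leaving out fasted replicates 1 and 3 ended 34 (Acaa1b, Ccng2, Cela2a, Clps, Crot, Csrp1, Dnaja1, Etfb, Fbp1, Fkbp4, Gadd45a, Gars, H2-Ab1, Hadha, Hspe1, Igtp, Jun, Lipe, Mep1a, Mptx1, Myc, Mylk, Nr0b2, Nr1h3, Pex19, Pgam1, Plin3, Sel1l, Slc27a2, Slc2a2, Slc40a1, Timp2, Tpi1 and Vnn1), and the pancreas covariate ended 20. Leaving out any 1 null array ended between 5 and 11, among Ccng2, Cela2a, Clps, Crot, Csrp1, Fabp2, Hspa4, Hspe1, Jun, Lipe, Mptx1, Nr1d2, Pfkfb3, Plin3, Reg3a, Slc2a2, Slc40a1 and Tpm1. The replicate block ended 1 call, that of Mptx1.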
